A study of Mus musculus with 6 samples.

Results

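Ly6c1, Ly6c2, Ly6a and Ly6e are 4 genes of the mouse Ly6 cluster, and they were taken by gene symbol from the 32285 features that were counted in sorted kidney T cells. The rule uses symbols only, and the symbols were picked with earlier results of these data known. Each of the 4 was followed as raw unique molecular identifier (UMI) counts in all 6 single-cell libraries, as CPM (UMIs scaled to the same library total), and cell by cell. The study asked how the CD4+, CD8+ and double negative (DN, CD4-CD8-) T cells of the kidney differ, at rest and after ischemia-reperfusion injury. The mice were wild-type C57BL/6J males of 7 to 8 weeks. Control libraries came from normal kidneys, and IR libraries from mice whose renal pedicles had both been clamped for 30 min, with serum creatinine read at baseline and at 24 h. From each, cells staining for CD45 and the T cell receptor (TCR) were sorted into CD4+, CD8+ and DN cells and run on 10x 3' v3.1 chemistry. Each of the 6 groups was 1 library, and the labels do not say how many mice were pooled into it. No replicate error exists, so no p-value is given, and every interval is a 95% interval that covers counting error only. Intervals are exact for a level (Poisson), a share (Clopper-Pearson) and a ratio (the binomial split of UMIs). For an odds ratio they are approximate, from the standard error of the log odds.

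Ly6 proteins are small surface proteins with a compact disulfide-bonded fold (the LU domain), and most are held in the membrane by a glycosylphosphatidylinositol (GPI) anchor. Antibodies to Ly6C, the product of the Ly6c1 and Ly6c2 genes, are used to tell monocyte classes apart and also stain memory T cells, and Ly6c1 is abundant in many endothelial cells. Ly6a encodes Sca-1, the stem cell antigen, which lymphocytes also carry and which interferons induce. Ly6e encodes TSA-1, a thymocyte antigen that also limits or aids the entry of several viruses.

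The 4 genes lay within 156920 bp of chromosome 15 in the GRCm38 annotation, a stretch with 11 annotated genes of which 5 were coding. Ly6e (ENSMUSG00000022587) lay on the plus strand at chr15:74955051-74959905. Ly6a (ENSMUSG00000075602) lay on the minus strand at chr15:74994877-74998031. Ly6c1 (ENSMUSG00000079018) followed at chr15:75044018-75048830 and Ly6c2 (ENSMUSG00000022584) at chr15:75108158-75111970, both on the minus strand. No other annotated gene overlapped any of them. All 4 are short genes, with 1071 (Ly6e), 1073 (Ly6c2), 1950 (Ly6a) and 3136 (Ly6c1) intronic bases.

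The Ly6c pair are near copies, so the chance that reads of one were counted for the other was looked at first. Over the last 500 bases of their transcripts, where 3' reads fall, Ly6c1 and Ly6c2 were 95.5% identical (484 of 507 aligned positions), whereas each was 83.8% to 85.2% identical to Ly6a and at most 48.1% identical to Ly6e. Of the 91-base windows in that stretch, 195 of 1450 (13.4%) of Ly6c1 also occurred in Ly6c2, and 132 of 692 (19.1%) of Ly6c2 occurred in Ly6c1. No window of Ly6a (0 of 484) or Ly6e (0 of 1347) occurred in another gene. The CD8+ libraries set a bound on Ly6c2 reads counted as Ly6c1, because only 27 of 30064 Ly6c UMIs (0.0898%) in control and 5 of 5337 (0.0937%) in IR were assigned to Ly6c1 there.

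The regions upstream of the pair were less alike than their 3' ends, and they are shown because Ly6c1 and Ly6c2 had unlike levels across the subsets. The RefSeq promoter table (GRCm38.p6) held 2 of the 4 genes. The 250 bases before each first start site are printed 5′ to 3′ on the minus strand, for Ly6c1 at chr15:75048838-75049087 and for Ly6c2 at chr15:75111972-75112221. Capitals mark bases without an identical partner when the pair were aligned, 86 in each, and 164 of 228 aligned positions (71.9%) were identical.
Ly6c1: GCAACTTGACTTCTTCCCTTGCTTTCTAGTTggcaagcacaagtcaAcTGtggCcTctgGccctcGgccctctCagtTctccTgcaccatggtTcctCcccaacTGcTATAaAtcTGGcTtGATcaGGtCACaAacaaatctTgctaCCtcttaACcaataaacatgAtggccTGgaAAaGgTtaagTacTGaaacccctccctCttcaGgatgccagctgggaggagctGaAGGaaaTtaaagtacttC
Ly6c2: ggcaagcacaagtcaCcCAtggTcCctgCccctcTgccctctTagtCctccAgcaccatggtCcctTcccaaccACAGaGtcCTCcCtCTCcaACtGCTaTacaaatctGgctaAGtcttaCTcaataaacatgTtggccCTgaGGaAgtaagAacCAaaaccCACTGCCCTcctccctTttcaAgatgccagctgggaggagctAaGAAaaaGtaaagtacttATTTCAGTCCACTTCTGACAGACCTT
Motifs of lymphocyte and interferon regulators were searched on both strands of 300-base windows, and matches were allowed to overlap. The windows run from 250 bases before to 50 bases after these start sites. The runt-domain motif TGTGGT occurred once in the window of Ly6c2, as ACCACA from base 72, and was not found in that of Ly6c1. It occurs in 16.8% of the 32851 windows of the table. The interferon gamma site TTCNNNGAA (8.30% of all windows), the interferon-stimulated response element core, GAAA and GAAA with any 2 bases between (3.44%), the AP-1 motif TGANTCA (7.81%) and the T-box motif TCACACC (3.98%) were not found in either of these windows, which says only that these letters are not in them. The table also holds a second start site for each gene. The windows of these had the same TGTGGT match in Ly6c2 and a T-box match, GGTGTGA from base 139, in Ly6c1, and no other.

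The libraries matched their sort. The CD4+ libraries had Cd4 at 210 CPM (control) and 145 CPM (IR) with at most 0.457 CPM in the others, Cd8a and Cd8b1 were at 393 CPM or more in the CD8+ libraries and at most 6.16 CPM elsewhere, and all 6 markers of T cells passed 10 CPM in every library. After cell filters 48207 of 54039 barcodes remained, from 4124 to 10187 in a library. Depth differed between the conditions, at a median of 4959.5 to 6564 UMIs per cell in control and 937 to 1425 in IR, over features other than mitochondrial and ribosomal protein genes and Malat1. The ribosomal share of UMIs was 16.5% to 22.8% in control and 27.2% to 42.7% in IR. The headers give Cell Ranger 5.0.1 for the control and 6.0.1 for the IR matrices, so that injury and software version cannot be told apart. Any pair of libraries of 1 condition shared 97 to 168 barcodes, and pairs across conditions 8 to 33. Leaving those out moved 1 of the 36 ratios described here outside its counting interval and none of the 9 counts of genes past 2-fold.

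Ly6c1 was the gene with the sharpest difference between subsets. It was measured at 53.7 CPM in CD4+ cells, 0.592 CPM (27 UMIs) in CD8+ cells and 75.4 CPM in DN cells of control kidneys, and at 85.8, 0.762 (5 UMIs) and 66.8 CPM in the same order after IR. CD8+ cells thus stood far below both other subsets, in each condition, and the intervals of CD8+ (0.390 to 0.862 and 0.247 to 1.78 CPM) came nowhere near the rest. Against control CD4+ cells the control CD8+ level was 90.6-fold lower, and against control DN cells 127-fold lower. After IR these differences were 113-fold and 87.6-fold. The CD8+ values were above the 3-count floor of 0.0658 and 0.457 CPM, but they moved with a few barcodes that lacked any Cd3 or TCR constant UMI and carried 3 or more UMIs of non-T genes. Such barcodes were removed, 3 to 25 per library, and with them kept the CD8+ libraries had Ly6c1 at 1.67 CPM (control) and 4.56 CPM (IR). Over the 14 settings compared, the log2 ratio of CD8+ over CD4+ cells ranged from -7.74 to -5.02 in control and from -7.12 to -4.27 in IR. In those removed barcodes themselves Ly6c1 was at 1219, 1885 and 0 CPM (control CD4+, CD8+, DN) and 922, 1334 and 536 CPM (IR), while 1 Ly6c2 UMI was counted in all 6 libraries together.

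Ly6c2 had the reverse placement of CD8+ and CD4+ cells. Its levels were 425 CPM (CD4+), 659 CPM (CD8+) and 1201 CPM (DN) in control kidneys, and 279, 813 and 865 CPM after IR. DN cells were the highest and CD4+ cells the lowest in both conditions, with DN and CD8+ cells close to each other after IR. The log2 ratio of DN over CD4+ cells was 1.5 (1.48 to 1.52) in control and 1.63 (1.57 to 1.70) in IR, and that of CD8+ over CD4+ cells was 0.63 and 1.54. For DN over CD8+ cells it was 0.87 in control and 0.09 (0.03 to 0.15) in IR, and the latter turned to -0.08 when the libraries were scaled by TMM factors. Of all Ly6c UMIs, Ly6c1 made up 11.2% (10.8 to 11.6) in control CD4+ cells, 5.90% in control DN cells, 23.5% (22.4 to 24.7) in IR CD4+ cells and 7.17% in IR DN cells.

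Ly6a, the interferon-inducible Sca-1 gene, was highest in CD4+ cells. Its levels were 543, 207 and 431 CPM in CD4+, CD8+ and DN cells of control kidneys, and 427, 101 and 256 CPM after IR. The order CD4+, DN, CD8+ held in both conditions, and no intervals met between neighbours. CD8+ cells were 2.62-fold below CD4+ cells in control and 4.22-fold below in IR, and DN cells were 2.08-fold and 2.52-fold above CD8+ cells.

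Ly6e was the most abundant of the 4 in every library except IR CD8+ cells, where Ly6c2 was. These are 3' UMI counts, 1 per captured transcript end, so they are not divided by transcript length. Ly6e was at 1048, 683 and 1304 CPM in the control libraries (CD4+, CD8+, DN) and at 1344, 725 and 1742 CPM in the IR libraries. DN cells had the highest and CD8+ cells the lowest level in both conditions, with log2 ratios of DN over CD8+ cells of 0.93 in control and 1.26 in IR.

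**Figure D1:**
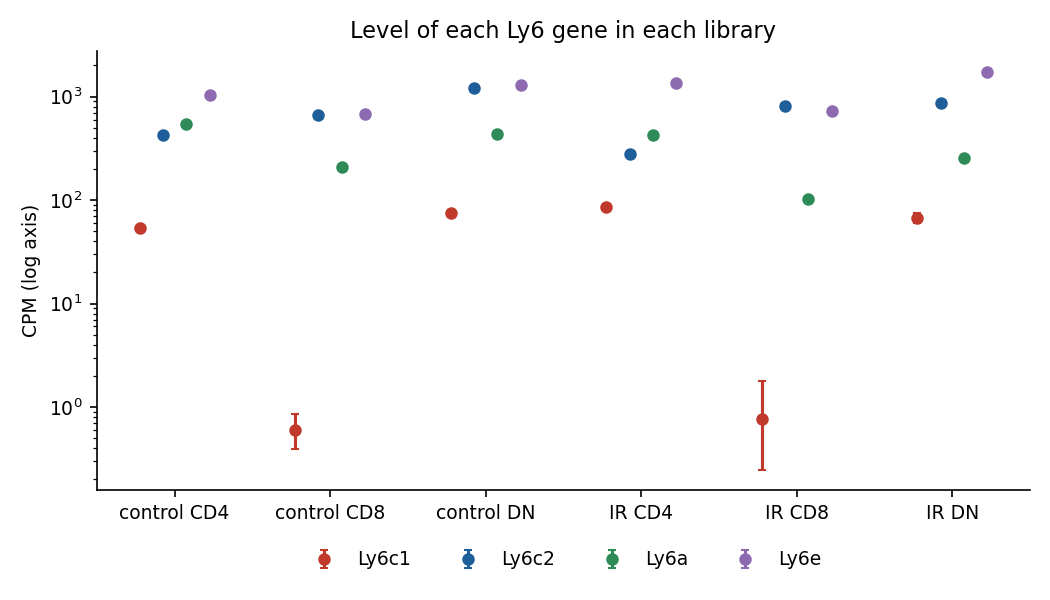
The level of each Ly6 gene (CPM, log axis) is plotted for the 6 libraries, with colours for genes and vertical bars for exact 95% Poisson intervals, which are often smaller than the points. Ly6c1 drops from 53.7 to 85.8 CPM in CD4+ and DN cells to under 1 CPM in both CD8+ libraries, where the lowest of the other genes is Ly6a at 101 CPM.

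Counted against all genes, a gene was past 2-fold when its CPM differed at least 2-fold and reached 10 CPM in the higher library. The shares of all genes are shares of those that reached 10 CPM in this way. In control, DN over CD4+ cells had 1 Ly6 gene higher (Ly6c2) and 0 lower, where 1.35% and 1.37% of all genes were higher and lower, 2.72% together. For DN over CD8+ cells in control it was 2 higher (Ly6c1, Ly6a) and 0 lower (all genes 3.53% and 3.03%, together 6.57%), and for CD8+ over CD4+ cells in control 0 higher and 2 lower (Ly6c1, Ly6a; all genes 1.75% and 2.61%, together 4.36%). After IR, DN over CD4+ cells had 1 higher (Ly6c2) and 0 lower (5.96% and 2.12%, together 8.08%), DN over CD8+ cells 3 higher (Ly6c1, Ly6a, Ly6e) and 0 lower (7.18% and 3.94%, together 11.1%), and CD8+ over CD4+ cells 1 higher (Ly6c2) and 2 lower (Ly6c1, Ly6a; 4.4% and 3.36%, together 7.77%). These comparisons share libraries, so their counts are not independent of each other. With Ly6c1 and Ly6c2 summed as 1 feature, the sum was at 478, 660 and 1277 CPM in control and 365, 814 and 932 CPM after IR, in the order CD4+, CD8+ and DN.

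After injury the genes differed in direction, and 1 of them was past 2-fold in 1 subset. In CD4+ cells 0 genes were higher and 0 lower (8.02% and 14.7% of all genes, 22.8% together), in CD8+ cells 0 higher and 1 lower (8.74% and 16.8%, together 25.5%), and in DN cells 0 higher and 0 lower (9.45% and 10.2%, together 19.7%). Of the 9072 to 9340 genes at 10 CPM or more in a subset, most had lower CPM after IR, with median log2 ratios of -0.26, -0.36 and -0.24. With no minimum CPM and counts of 0 set to 3, the medians over 22569 to 23178 genes were positive, at 0.16, 0.32 and 0.51. Genes with few intronic bases stood apart from the rest at 10 CPM or more. Among the 453 to 467 genes of like intronic length the median was 0.42 (CD4+), 0.17 (CD8+) and 0.29 (DN) for the bin of Ly6c2, Ly6a and Ly6e, and 0.32 and 0.17 for that of Ly6c1 in CD4+ and DN cells. The ratios of the 4 Ly6 genes over whole libraries are therefore also given centred. Centring subtracts the median of the bin and adds back the median of all genes, which was negative in each subset. A gene at the median of its bin is thus below 0 when centred.

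The gene past 2-fold was Ly6a in CD8+ cells, with a log2 ratio, IR to control, of -1.03 (-1.15 to -0.92). Its ratio was -0.35 (-0.39 to -0.31) in CD4+ cells and -0.76 (-0.84 to -0.67) in DN cells. Centred by intronic length these became -1.56 (CD8+), -1.02 (CD4+) and -1.28 (DN). Ly6a was thus lower after IR in all 3 subsets, and it was so under all 14 ways of processing that were compared. The ranges were -1.02 to -0.31 in CD4+, -1.56 to -0.96 in CD8+ and -1.28 to -0.72 in DN cells. Among the 14 are settings that change only the minimum CPM, and these cannot move the ratio of a gene. The 2-fold mark in CD8+ cells was missed when the 5% of barcodes with the most UMIs were kept (-0.96) and when non-T barcodes were kept (-0.99).

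Ly6c2 was lower after IR in CD4+ cells, at -0.61 (-0.65 to -0.56), and in DN cells, at -0.47 (-0.52 to -0.43). Centred by intronic length these values were -1.28, which is past 2-fold, and -0.999. In CD8+ cells it was higher, at 0.30 (0.26 to 0.34), but this sign turned to -0.11 with the ribosomal and mitochondrial features kept in the totals and to -0.22 when centred by intronic length. Ly6c1 had a ratio of 0.68 (0.58 to 0.77) in CD4+ cells, above that of 86.2% of all genes, and of -0.17 (-0.35 to -0.01) in DN cells. Both Ly6c1 signs held in all 14 settings, over 0.10 to 1.01 in CD4+ and -0.58 to -0.12 in DN cells. The values centred by intronic length were 0.10 in CD4+ and -0.58 in DN cells. In CD8+ cells Ly6c1 was under 10 CPM, with 27 UMIs in control and 5 in IR, so no direction is read from its ratio.

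Ly6e had positive ratios of 0.36 (CD4+), 0.09 (CD8+) and 0.42 (DN). Centred by intronic length, which adds the negative median of all genes, they were -0.32, -0.44 and -0.11. The medians of its bin were 0.42, 0.17 and 0.29. Ly6e thus lay below the median of its bin in CD4+ and CD8+ cells and above it in DN cells. With removed features kept in the totals the CD8+ value was also negative, at -0.33. No direction for Ly6e after injury can be read from these libraries.

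**Figure D2:**
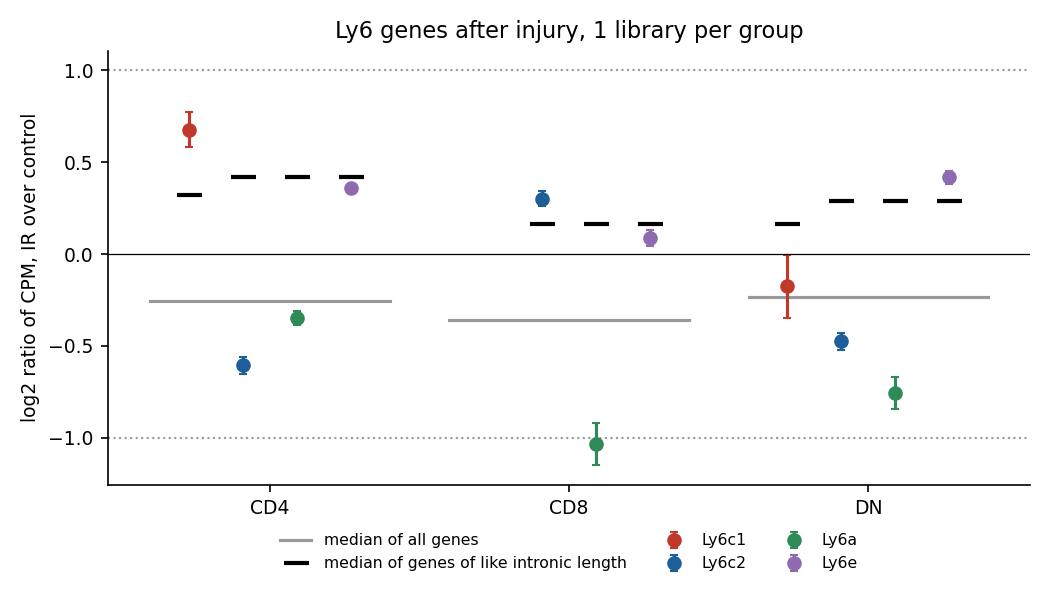
Each point is the log2 ratio of CPM, IR over control, of a Ly6 gene in 1 sorted subset, with its exact 95% interval. The grey line is the median of all genes, the black dashes the median of genes of like intronic length, and the dotted lines mark 2-fold. Ly6a lies below both medians in CD4+, CD8+ and DN cells, and Ly6c1 lies above both in CD4+ cells, while in DN cells its interval includes the median of all genes.

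The share of cells with a UMI was compared after each cell had been thinned to 500 UMIs, since depth differed between libraries, and no kept cell was shallower. Ly6c1 was seen in 2.13% (197 of 9259) of control CD4+ cells, 3.54% (315 of 8909) of control DN cells, 4.03% (411 of 10187) of IR CD4+ cells and 3.15% (130 of 4124) of IR DN cells. In CD8+ cells it was seen in 1 of 9310 control cells (0.0107%, 0.000272 to 0.0598) and 3 of 6418 IR cells (0.0467%, 0.00964 to 0.137). The shares in CD4+ and DN cells were above those in CD8+ cells, which restates the difference in level and is no separate background. At full depth the control shares were 14.6% (CD4+), 0.193% (CD8+) and 24.8% (DN), and the IR shares 9.74%, 0.0779% and 5.97%.

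Ly6c2 was seen in 13.3% of control CD4+, 23% of control CD8+ and 37.3% of control DN cells, and in 8.27%, 20.6% and 25% of the IR cells in the same order (unthinned 35.2%, 54.3%, 76.4%, 16%, 29.8% and 36.3%). Ly6a was seen in 20.7%, 8.81% and 16.5% of control and 16.1%, 4.05% and 10.4% of IR cells (unthinned 71.4%, 35.0%, 67.0%, 34.7%, 7.39% and 19.7%). Ly6e was the most widely seen, in 37.0%, 27.5% and 46.6% of control and 45.9%, 28.9% and 53.7% of IR cells (unthinned 90.0%, 81.7%, 97.4%, 77.0%, 47.2% and 76.8%). As a background, kept barcodes with no Cd3 or TCR constant UMI were counted at their own depth. In IR DN, 157 such barcodes (median 850 UMIs, against 1018 over all kept cells) had Ly6c1 in 0.637%, Ly6c2 in 1.91%, Ly6a in 7.01% and Ly6e in 35.7% of them. In IR CD4+ cells, 124 (median 988.5 UMIs, against 1425) had these in 0.806%, 0.806%, 4.03% and 37.9%, and in IR CD8+ cells, 116 (median 842 UMIs, against 937) in 0.862%, 2.59%, 2.59% and 19.8%. In the IR libraries Ly6c2 was thus rare in barcodes without T cell transcripts and Ly6e was not. In control libraries only 58, 19 and 20 barcodes were of this kind, with Ly6c2 in 12.1%, 21.1% and 15%, which is not rare.

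Ly6c2 was spread unevenly over the cells of each library. If its UMIs had fallen evenly (Poisson), 17.6% (CD4+), 27.2% (CD8+) and 45.1% (DN) of control cells would have held one at 500 UMIs, and 11.1%, 30.1% and 33.6% of IR cells. The observed shares were below these in all 6 libraries, and the variance over the mean of Ly6c2 was 1.47 to 2.15, the highest in IR CD8+ cells. For Ly6a it was 1.24 to 1.37, for Ly6e 1.08 to 1.20, and for Ly6c1 in the 4 CD4+ and DN libraries 1.08 to 1.26. At this depth none of the 4 genes was seen in 28.6% of control DN and 31.6% of IR DN cells, against 41.5% to 44.5% of CD4+ and 52.3% to 55.3% of CD8+ cells.

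**Figure D3:**
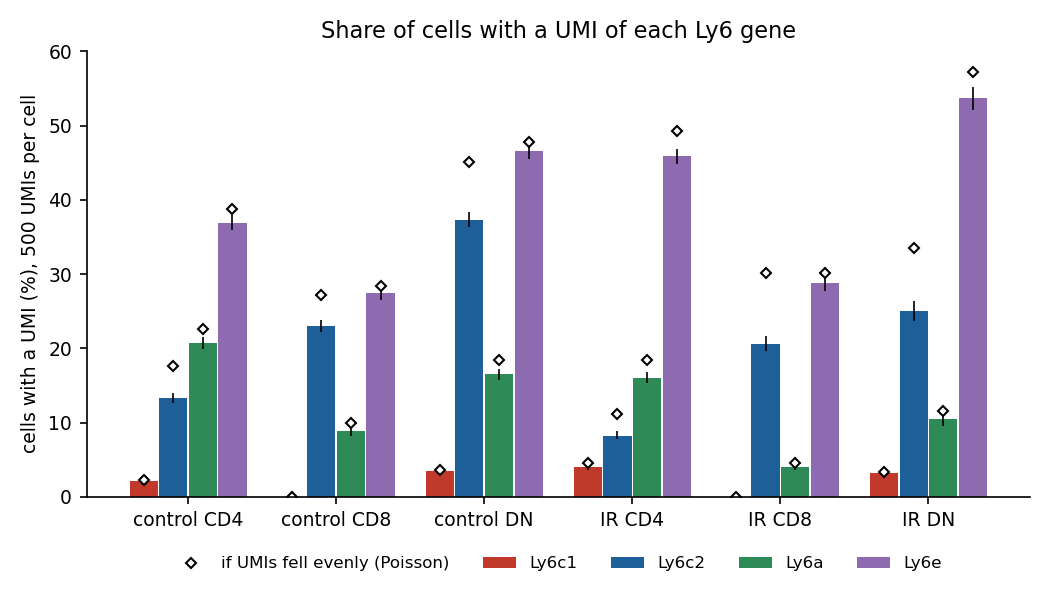
Bars give the percent of cells with at least 1 UMI of each Ly6 gene after thinning to 500 UMIs per cell, with exact 95% Clopper-Pearson intervals as thin lines, and diamonds give the percent had the UMIs fallen evenly over cells. The gap between bar and diamond is widest for Ly6c2, for example 20.6% against 30.1% in IR CD8+ cells, except in IR CD4+ cells, where that of Ly6e (45.9% against 49.4%) is wider than that of Ly6c2 (8.27% against 11.1%), and Ly6c1 bars are not visible in CD8+ cells.

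Pairs of genes were then compared within cells, by the odds ratio of one being seen given the other at 500 UMIs. The near copies Ly6c1 and Ly6c2 were not tied to each other at this depth, with odds ratios of 1.32 (0.90 to 1.93) in control CD4+, 1.02 (0.81 to 1.29) in control DN, 1.10 (0.78 to 1.56) in IR CD4+ and 1.06 (0.71 to 1.58) in IR DN cells. In control CD4+ cells the value depended on depth, at 2.14 when thinned to 1000 UMIs and 2.71 without thinning, where differences in depth between cells also enter. Ly6c2 and Ly6a were seen together more often than independence gives in CD8+ cells, at 1.63 (1.40 to 1.91) in control and 1.962 (1.504 to 2.56) in IR, and in IR CD4+ cells at 1.64 (1.38 to 1.94). The intervals of this pair spanned 1 in control CD4+ cells, at 1.10 (0.95 to 1.27), and in DN cells, at 1.02 (0.91 to 1.14) in control and 1.15 (0.92 to 1.44) in IR. Ly6a and Ly6e had odds ratios of 1.23 to 1.55 over the 6 libraries, and all 6 intervals lay above 1. The pair Ly6c1 and Ly6a stood at 2.00 (1.27 to 3.15) in IR DN and 1.47 (1.12 to 1.93) in control DN cells, while its interval spanned 1 in IR CD4+ cells, at 1.09 (0.84 to 1.42), and the 1.39 of control CD4+ cells became 0.989 at 1000 UMIs.

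Ly6a was higher in cells with more Ly6c2 UMIs in some libraries. Over cells with 0, 1, 2 to 3, and 4 or more Ly6c2 UMIs, Ly6a was at 181, 262, 440 and 435 CPM in control CD8+ cells and at 78.5, 109, 181 and 250 CPM in IR CD8+ cells. The highest class held 46 and 104 cells, so its intervals were wide (208 to 800 and 133 to 428 CPM). In IR CD4+ cells the same 4 classes had 391, 556, 670 and 720 CPM. In IR DN cells they had 236, 245, 305 and 351 CPM and in control DN cells 404, 404, 419 and 466 CPM, with intervals that overlap from class to class. Control CD4+ cells had 511, 540, 500 and 621 CPM, also within their intervals.

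Cells were next split by a UMI of a marker gene at full depth, and Ly6c1 and Ly6c2 parted most clearly in CD4+ cells. Ccr7 encodes the receptor that brings naive and central memory cells to lymph nodes. In the 695 control CD4+ cells with Ccr7, Ly6c1 was at 116 CPM against 48.4 CPM in the rest, and in the 2023 IR cells at 132 against 74.9 CPM. Ly6c2 went the other way, at 76.1 against 454 CPM in control and 39.7 against 335 CPM in IR, which is a log2 ratio of -2.58 and -3.08. Ly6a was also lower in Ccr7+ cells, with ratios of -1.34 and -1.28, as was Ly6e, with -0.68 and -0.56. A cell without a UMI can still express the marker, most of all in the shallower IR libraries. The share of CD4+ cells with Ccr7 was 7.51% in control and 19.9% in IR at full depth, and 1.65% and 10.3% at 500 UMIs.

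In DN cells the pair also parted, by Fcer1g, the signalling chain of Fc receptors and a feature of innate-like T cells. In the 2190 control cells with it Ly6c2 was at 1518 against 1089 CPM, Ly6c1 at 22.1 against 94.2 CPM and Ly6a at 203 against 513 CPM. In the 583 IR cells with it the same 3 genes were at 1612 against 731, 14.6 (10 UMIs) against 76.1 and 105 against 282 CPM.

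Other markers set the genes apart further. CD4+ cells with Foxp3, the factor of regulatory T cells, had little Ly6c2, at 68.6 against 440 CPM in 342 control cells and 41.2 against 287 CPM in 309 IR cells. Their Ly6c1 was also lower, at 18.2 against 55.3 and 39.2 against 87.4 CPM, while Ly6a was slightly higher, at 619 against 540 and 504 against 425 CPM. CD4+ cells with Pdcd1, the PD-1 gene, had lower Ly6c1 (log2 ratio -1.69 and -2.25) and higher Ly6a (0.33 and 0.57) in control and IR. CD4+ cells with Klrb1c, which encodes NK1.1, had higher Ly6c2, at 1032 against 329 CPM in control and 641 against 245 CPM in IR, and DN cells with it had log2 ratios of 0.67 and 0.73. Within CD8+ cells Itgae, the integrin of tissue-resident cells, went with lower Ly6c2, at 296 against 698 CPM in control and 291 against 822 CPM in IR.

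Ccl5, an effector chemokine, split Ly6c2 in IR more than in control. Ly6c2 in Ccl5+ and Ccl5- CD4+ cells was at 412 and 450 CPM in control and at 453 and 123 CPM in IR. In CD8+ cells it was at 686 and 398 CPM in control and 1257 and 273 CPM in IR. Within these classes the IR over control ratio of Ly6c2 was 0.87 in Ccl5+ and -0.54 in Ccl5- CD8+ cells, and 0.14 in Ccl5+ and -1.87 in Ccl5- CD4+ cells. These ratios were also centred with the shift of the whole libraries, an alternative added after seeing the data. It took off 0.52 in CD8+ and 0.68 in CD4+ cells and was not measured within a class of cells. The shifted ratios were 0.35 and -1.07 in CD8+ and -0.54 and -2.54 in CD4+ cells, so the sign in Ccl5+ CD4+ cells turned. The distance between the Ccl5+ and Ccl5- values of a subset is the same with and without this shift. Ly6c1 was lower in Ccl5+ cells throughout, at 35.1 against 90.7 CPM (control CD4+), 48.1 against 126 CPM (control DN), 54.4 against 114 CPM (IR CD4+) and 48.7 against 93.8 CPM (IR DN). In CD8+ cells Ly6a was at 225 against 36.8 CPM in control and 156 against 34.4 CPM in IR. The share of CD8+ cells with Ccl5 was 91% in control and 50.5% in IR, and 77.8% and 46.8% at 500 UMIs. The part of these shares in the levels over whole libraries was not tested.

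Within Ccr7+ CD4+ cells the IR over control ratio of Ly6c1 was 0.19 (-0.01 to 0.38) and within Ccr7- cells 0.63 (0.52 to 0.74), beside the 0.68 over all CD4+ cells. Centred with the shift of the whole libraries, the class values were -0.39, a turned sign, and 0.05. Within Fcer1g+ DN cells the ratio of Ly6c2 was 0.09 (-0.00170 to 0.17) and within Fcer1g- DN cells -0.58 (-0.63 to -0.52), which became -0.44, with the sign turned, and -1.10 when centred. Ly6a in DN cells was lower after IR with and without Fcer1g, at -0.94 and -0.86, and at -1.47 and -1.38 centred.

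**Figure D4:**
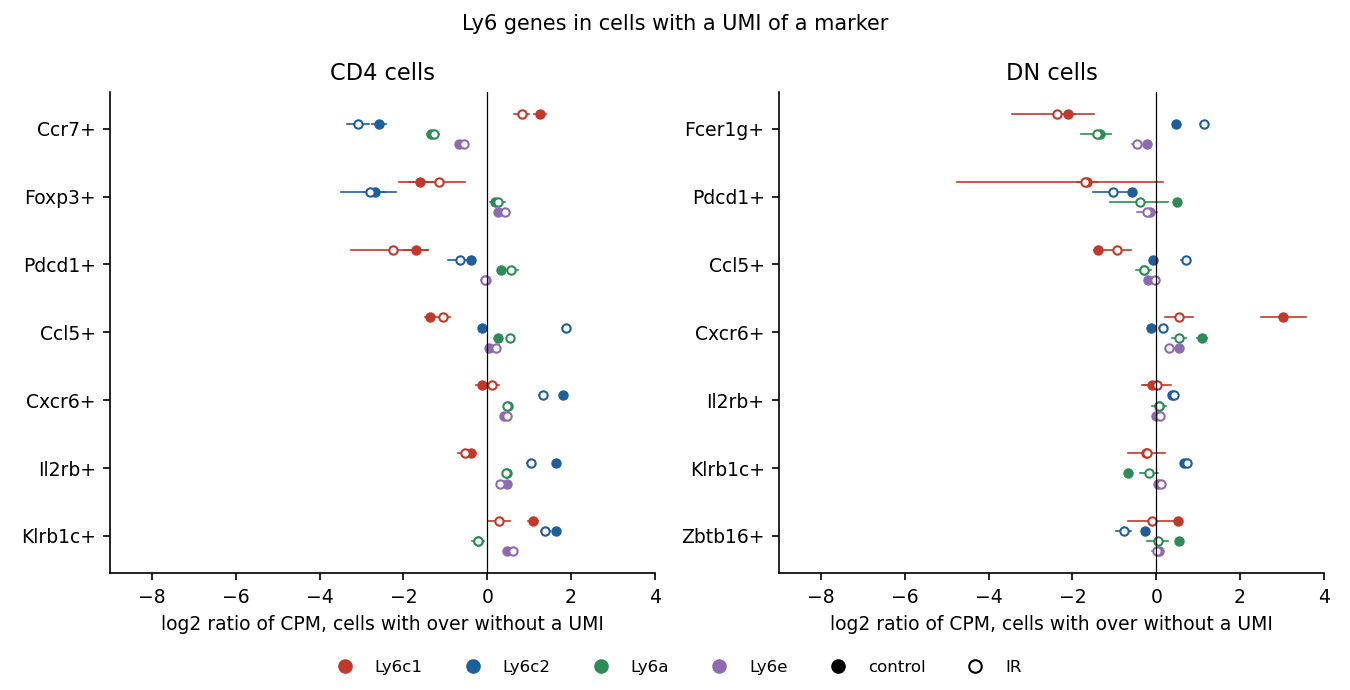
Points give the log2 ratio of CPM in cells with over cells without a UMI of the marker named on the left, for CD4+ cells (left panel) and DN cells (right panel), with filled points for control, open points for IR and lines for exact 95% intervals. In CD4+ cells with Ccr7, Ly6c1 lies to the right of 0 and Ly6c2 to the left, and in DN cells with Fcer1g the order of Ly6c1 and Ly6c2 is turned. For Ly6c1 in Fcer1g+ IR DN cells the ratio rests on 10 UMIs.

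The interferon link of these genes was read within libraries, from cells with UMIs of 2 or more of 7 strongly induced genes (Isg15, Ifit1, Ifit3, Usp18, Oasl1, Rsad2, Cmpk2). This set was chosen after seeing the data, because nearly all control cells had 2 genes of the longer list. Ly6a was at 893 against 492 CPM in such cells and the rest of control CD4+, 380 against 174 in control CD8+ and 715 against 388 in control DN cells. After IR it was at 1294 against 404, 630 against 88.4 and 880 against 241 CPM, from 226, 122 and 80 such cells. Ly6a was the gene of the 4 with the largest difference in every library, at log2 ratios of 0.86, 1.13 and 0.88 in control and 1.68, 2.83 and 1.87 in IR. Ly6c2 had ratios of 0.47, 0.31, 0.32, 1.30, 1.57 and 1.15 in the same order, and Ly6e of 0.28, 0.32, 0.21, 0.43, 0.84 and 0.36. Cells with 2 such genes were deeper, with a median of 6364 against 5390.5 UMIs in control CD4+ cells and 1171 against 933 in IR CD8+ cells, and at full depth made up 10.4% to 11.9% of control and 1.90% to 2.22% of IR cells.

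Ly6a after IR differed between these classes. In cells with 2 or more of the 7 genes its IR over control ratio was 0.54 (0.40 to 0.67) in CD4+, 0.73 (0.43 to 1.02) in CD8+ and 0.30 (-0.02 to 0.61) in DN cells, and in the rest, close to the whole libraries, -0.28, -0.98 and -0.68. Centred with the shift of the whole libraries, the values of the first class were -0.14 in CD4+, 0.20 in CD8+ and -0.22 in DN cells. Its sign thus turned in CD4+ and DN cells, but the shift was not measured within this small class. The values of the rest were -0.96, -1.503 and -1.21. An IR cell needs a higher level than a control cell to show 2 genes at its lower depth, so the class is stricter in IR. When cells were called at 500 UMIs they made up 0.983%, 1.08% and 0.977% of control cells and 0.825% and 0.857% of IR CD4+ and CD8+ cells.

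**Figure D5:**
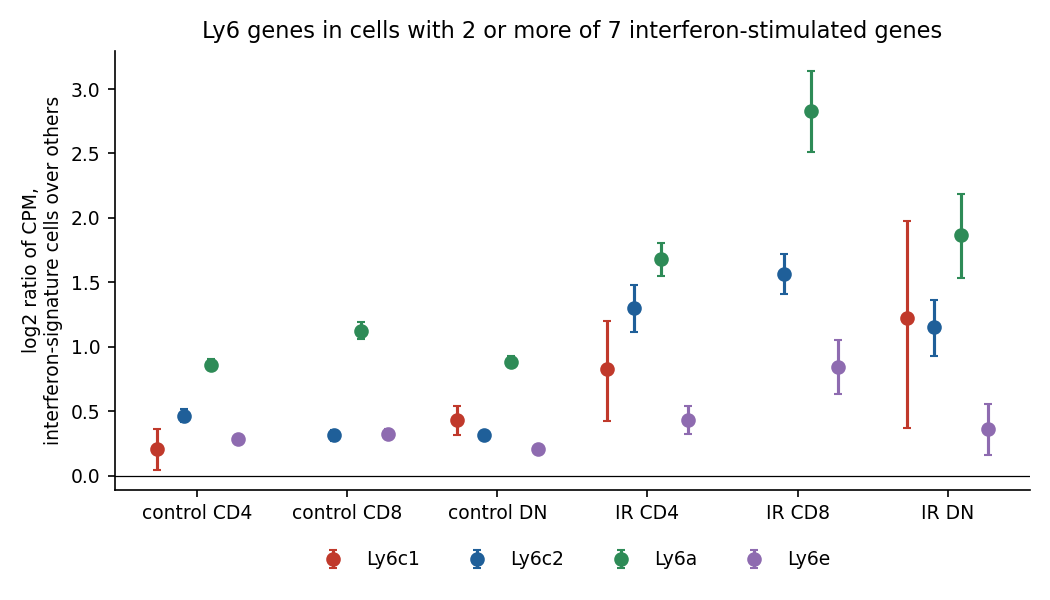
The log2 ratio of CPM in cells with 2 or more of 7 interferon-stimulated genes over other cells is plotted for each Ly6 gene and library, with exact 95% intervals and no Ly6c1 points in CD8+ cells, where UMIs were too few. Ly6a is the highest point in all 6 libraries, from 0.86 in control CD4+ to 2.83 in IR CD8+ cells, and no point lies below 0.

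Over whole libraries the other interferon genes did not all have lower levels after IR, as Ly6a had. Of the list of core interferon-stimulated genes, 1 of 24 was higher and 3 lower in IR CD4+ cells (median log2 ratio -0.51), 0 and 4 of 23 in CD8+ cells (-0.54), and 1 and 6 of 24 in DN cells (-0.43), beside medians over all genes at 10 CPM or more of -0.26, -0.36 and -0.24. Over these genes 8.02% were higher and 14.7% lower in CD4+ cells, 8.74% and 16.8% in CD8+ cells, and 9.45% and 10.2% in DN cells, and the counts of these and the following lists are to be read against those shares. At the ends of the list in CD4+ cells stood Igtp (-1.17) and Gbp2 (-1.15), GTPases induced by interferon gamma, and Ifi27l2a (1.07) and Isg20 (0.84). Centred by intronic length, which was added for the lists after seeing the data, these 4 were at -1.55, -1.28, 0.39 and 0.34, and 0 genes were higher in any subset and 5, 6 and 5 lower (CD4+, CD8+, DN). Centring left 5.89%, 7.66% and 8.30% of all genes higher and 9.74%, 13.9% and 8.46% lower. Among 13 receptor and signalling genes in CD4+ cells, 3 were higher and 0 lower, led by the interferon gamma receptor chain Ifngr2 (3.08) and the feedback inhibitor Socs3 (2.78), with Irf9 (-0.83) at the lower end. In CD8+ cells it was 3 and 1 of 13, with Ifngr2 at 3.11, and in DN cells 2 and 1 of 12, with Socs3 at 1.83 and Irf9 at -1.02. Centred, Ifngr2 was at 2.95 (CD4+) and 3.04 (CD8+), Socs3 at 2.10 (CD4+) and 1.31 (DN) and Irf9 at -1.51 (CD4+) and -1.54 (DN), and the counts were 3 and 1, 3 and 2, and 2 and 1.

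The genes that make the GPI anchor of the Ly6 proteins had 1 higher and 2 lower of 20 in each of the 3 subsets after IR, with medians of -0.27, -0.41 and -0.34, counts near or below the shares over all genes (8.02% to 9.45% higher, 10.2% to 16.8% lower). The higher one was Dpm3, a subunit of the dolichol phosphate mannose synthase, at 1.88, 1.65 and 1.26. Other GPI-anchored antigens of T cells had 0 and 0 of 11 in CD4+ cells, 1 and 2 of 12 in CD8+ cells (lower: Cd160 at -1.44 and H2-Q7 at -1.003) and 1 and 1 of 11 in DN cells. Genes of naive or recirculating cells had 7 higher and 0 lower of 10 in CD4+ and in CD8+ cells, with Ccr7 at 2.90 and 3.02, and 2 and 0 of 7 in DN cells. Genes of residency had 0 higher and 4 lower of 7 in CD4+, 0 and 4 of 8 in CD8+, and 1 and 4 of 7 in DN cells, with Itga1, the collagen-binding integrin, at -2.41, -2.82 and -1.55. The shares over all genes beside these lists were 8.02% to 9.45% higher and 10.2% to 16.8% lower. When centred by intronic length Dpm3 was at 1.502, 1.43 and 1.03, Cd160 and H2-Q7 in CD8+ cells at -1.34 and -1.58, Ccr7 at 2.53 and 2.79, and Itga1 at -1.77, -2.37 and -1.07, so none of these changed direction. The naive counts were the same, and residency had 0 higher in each subset and 4, 5 and 3 lower. The other GPI-anchored antigens had 3 lower in CD4+ cells, in place of 0, and the same counts in CD8+ and DN cells, and the anchor genes 1 higher in each subset and 2, 1 and 1 lower.

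Among the wider family of LU-domain genes, 38 of 40 listed symbols were measured and 7 reached 10 CPM in some library. Beside the 4 these were Ly6g5b, Lypd6b and Plaur, the urokinase receptor. Plaur was at 3.80, 8.84 and 1.41 CPM in control (CD4+, CD8+, DN) and at 27.0, 38.9 and 35.2 CPM after IR, higher in all 3 subsets, also when centred (log2 ratios of 2.57, 1.99 and 4.48). Ly6g5b was highest in DN cells, at 17.3, 4.92 and 29.5 CPM in control and 8.21, 3.20 and 20.5 CPM after IR. Lypd6b went the other way, with 4.87 and 5.56 CPM in DN cells and 8.92 to 18.9 CPM in CD4+ and CD8+ cells. Ly6i, the only other coding gene between Ly6e and Ly6c2, stayed under 1 CPM, and so did Ly6g, the granulocyte antigen.

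Finally, the genes most like each Ly6 gene from cell to cell were sought among 5027 genes, by the mean over the 6 libraries of the correlation across cells at 500 UMIs. These values are small in sparse counts, and they are descriptions over 4124 to 10187 cells of a library that share its depth and preparation. For Ly6c2 the highest were Cd52 (0.147), a GPI-anchored lymphocyte antigen, Tmsb4x (0.141), Actb (0.130), Ccl5 (0.119) and Nkg7 (0.118), a cytotoxic granule gene, and the lowest Emb (-0.061), Il7r (-0.058) and Pdcd4 (-0.056). All of them were weaker in the control libraries than in IR, for example 0.053 to 0.074 against 0.190 to 0.257 for Cd52. For Ly6a the highest were AW112010 (0.112), Ifi27l2a (0.094), Tmsb4x (0.081), Cd52 (0.080) and Isg15 (0.078), and the lowest Klf2 (-0.070), Arhgap15 (-0.065) and Lef1 (-0.056). Ifi27l2a and Isg15 are interferon-stimulated genes, Klf2 and Lef1 are factors of naive cells, and the sign held in all 6 libraries for each of these 4. For Ly6e the highest were Ltb (0.067), AW112010 (0.061), Cyba (0.059), Tmsb10 (0.058) and Cd52 (0.056), and the lowest Klf2 (-0.059), Gzma (-0.045) and Aff3 (-0.042). For Ly6c1 no gene passed 0.027, with Kcnq5, Satb1, Naa50, Hist1h2ap and Tpt1 at the top and Ccl5 (-0.045), Itgb1 and S100a4 at the bottom, and Naa50 and Hist1h2ap rested on the CD8+ libraries, where 1 and 3 cells held a Ly6c1 UMI. Over the 4 CD4+ and DN libraries, a choice made after seeing the data, Satb1 (0.043) and Kcnq5 (0.041) led and Ccl5 (-0.072) was lowest.

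Signs of other cells were measured beside these results. The myeloid marker list summed to 61.9 to 305 CPM, the most of it Ccr2 (34.1 to 294 CPM), which T cells also express. Of its 12 genes, 1 reached 10 CPM in each library except that of IR CD4+ cells, where 4 did, with C1qa at 16.4, C1qb at 16.7 and S100a9 at 11.3 CPM beside Ccr2. The endothelial list came to 79.2 to 202 CPM, nearly all of it Pecam1 and Ehd3. The endothelial defining genes Cdh5 (0.0493 to 2.13 CPM) and Plvap (0 to 0.762 CPM) were near 0 in every library. The summed erythroid list was at 1.05 to 1.17 CPM in control and 19.4 to 26.2 CPM in IR libraries, and so moved with the condition in all 3 subsets. The B cell list also summed higher after IR in each subset, at 1.98, 11.98 and 2.01 CPM in control (CD4+, CD8+, DN) and 8.15, 25 and 17.4 CPM in IR. The full myeloid and endothelial lists summed lower after IR in each subset, but the rest of the genes summed higher in each once Ccr2, or Pecam1 and Ehd3, were left out, a choice made after seeing the data. Without Ccr2 the myeloid sum was 27.7, 16.6 and 11.1 CPM in control and 66.7, 27.7 and 23.6 CPM in IR, and without Pecam1 and Ehd3 the endothelial sum was 2.69, 1.49 and 0.691 CPM in control and 4.30, 7.01 and 6.68 CPM in IR. The NK list summed to 1.31, 60.7 and 21.6 CPM in control and 2.50, 29.3 and 10.7 CPM in IR. In CD8+ cells nearly all of it was Eomes, at 60.2 CPM in control and 28.4 CPM in IR. Ncr1, another gene of that list, was at 0.395 and 0.305 CPM in CD8+ cells and at 15.3 and 6.68 CPM in DN cells. The tubule list summed to 3.35 to 9.13 CPM over the 6 libraries. The part of these lists in the IR over control results, beyond the barcodes left out, was not tested. Leaving out every barcode with 3 or more UMIs of non-T genes, whatever its TCR transcripts, moved 2 of the 36 ratios outside their counting intervals and none of the 9 counts past 2-fold.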

How the data were processed

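Single-cell 3' libraries of sorted kidney T cells were analysed, 1 for each of 6 groups. The deposited values are raw UMI counts per feature and barcode, which the authors made with Cell Ranger against mm10 (6.0.1 in the labels, with 5.0.1 in the headers of the control matrices), without normalization. Total UMIs per library were 75191397, 76054125 and 89497612 (control CD4+, CD8+, DN) and 29129274, 15102441 and 7787822 (IR), and these totals set the width of the intervals.

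Barcodes with at least 500 features and at most 20% mitochondrial UMIs were kept. As possible doublets, the 5% of a library's barcodes with the highest UMI counts were then dropped, and no doublet caller was run. Barcodes with no Cd3 or TCR constant UMI and 3 or more UMIs of non-T genes were removed, 70 in all. Mitochondrial and ribosomal protein genes and Malat1 (104 features) were left out, and UMIs were summed per library and scaled to CPM. A gene counted as past 2-fold at a ratio of 2 or more with 10 CPM or more in the higher library. With 1 library per group no test across libraries was run. Shares and pairs used cells thinned to 500 UMIs, and a ratio between cell classes needed 50 UMIs of the gene over both classes. Where a list is described, the genes named are those at its ends among genes at 50 CPM or more, and likeness names the 5 highest and 3 lowest genes. Positions and introns came from GENCODE vM21 (GRCm38).

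The 4 genes, the lists and the markers were chosen with earlier results of these data known. Alternatives covered filters, scaling (TMM of edgeR 4.0.16 in R 4.3.3), centring by intronic length, thinning, shared barcodes and the summed Ly6c pair. The set of 7 interferon genes, the centring of ratios within cell classes and of the lists, the marker sums without Ccr2, Pecam1 and Ehd3, the barcodes without T cell transcripts and the likeness of Ly6c1 without CD8+ libraries were added after seeing the data. The code used Python 3.11.15, NumPy 2.4.6, SciPy 1.17.1, pandas 2.3.3, matplotlib 3.10.9 and Biopython 1.88, and the counting steps were tested on simulated data. Results of some listed genes are not reported here.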

Additional observations from a re-analysis of the deposited data

Results flagged for a closer look

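Ly6c1 and Ly6c2 had IR over control ratios of opposite sign in different subsets. For Ly6c1 the log2 ratio was 0.68 in CD4+ cells and -0.17 in DN cells. For Ly6c2 it was -0.61 in CD4+ and -0.47 in DN cells and 0.30 in CD8+ cells. With 1 library per group these differences between subsets were not tested. The CD8+ value of Ly6c2 turned to -0.11 with ribosomal, mitochondrial and Malat1 features kept in the totals and to -0.22 when centred by intronic length. Both Ly6c1 values kept their sign in the 14 settings compared.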

How the results depend on the processing

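No paired analysis was possible because each group was 1 library and the labels give no replicate numbers. The counts of Ly6 genes past 2-fold moved in several settings. Centring by intronic length took IR over control in CD4+ cells from 0 to 2 genes (Ly6c2 at -1.28, Ly6a at -1.02) and in DN cells from 0 to 1 (Ly6a at -1.28). These centred values include the median of all genes that is added back, -0.26 in CD4+ and -0.24 in DN cells. Thinning to 500 UMIs gave 1 in CD4+ cells (Ly6c1 at 1.01), and in DN over CD8+ cells of control it left 1 of 2 (Ly6a at 0.95), as did the mean over cells (Ly6a at 0.98). Keeping the 5% of barcodes with the most UMIs, or the non-T barcodes, left 0 of 1 in IR over control of CD8+ cells. Keeping the removed features added Ly6e in DN over CD8+ cells of control (1.03, 2 to 3 genes) and in CD8+ over CD4+ cells of IR (-1.06, 3 to 4). Summing Ly6c1 and Ly6c2 left 1 of 2 in DN over CD8+ and in CD8+ over CD4+ cells of control and 2 of 3 in the same comparisons of IR. The sum itself was under 2-fold in both control comparisons (0.95 and 0.46) and in DN over CD8+ cells of IR (0.20), so the Ly6c1 call was lost there, while in CD8+ over CD4+ cells of IR it was past 2-fold (1.16). The cause of the other moves was not tested.

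The odds ratio of Ly6c1 and Ly6a in control CD4+ cells, 1.39 at 500 UMIs, was 0.989 at 1000 UMIs. Signs of ratios turned for Ly6e after IR (centred by intronic length: -0.32 in CD4+, -0.44 in CD8+, -0.11 in DN; removed features kept: -0.33 in CD8+), Ly6c2 after IR in CD8+ cells (-0.11 and -0.22 in these settings), Ly6c2 in DN over CD8+ cells of IR (-0.08 with TMM) and Ly6c1 after IR in CD8+ cells (-0.05 with removed features kept), where it had 5 UMIs. Keeping the removed features moved the median of all genes by -0.37, -0.43 and -0.18 in IR over control of CD4+, CD8+ and DN cells. When cells were split by markers called on thinned cells, 124 ratios stayed within their interval and 171 moved. None of those past 2-fold at full depth changed sign. Centring by intronic length moved 96 of 101 IR over control ratios within cell classes outside their intervals. Depth limits Ly6c1 in CD8+ cells and every class of under 100 cells in IR DN, and with no replicate library no difference between groups can be set against variation among animals.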

Other observations

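Kcnq5, a potassium channel gene, and Cxcr6, a chemokine receptor of tissue T cells, split Ly6c1 in control DN cells at full depth. Ly6c1 was at 83.8 CPM in cells with a Kcnq5 UMI and 7.80 CPM in the rest, a log2 ratio of 3.43, and at 78.9 against 9.74 CPM with and without Cxcr6, a ratio of 3.02. When the markers were called at 500 UMIs the ratios were 0.93 and 0.35, and in IR DN cells at full depth 0.66 and 0.55. Zbtb16, which encodes PLZF, a factor of innate-like T cells, went with higher Ly6c2 in control CD4+ cells (1.80, and 0.49 in IR) and with lower Ly6c2 in DN cells (-0.27 in control and -0.77 in IR). Cells with Mki67, a proliferation marker, had lower Ly6c1 in control CD4+ (-1.61) and control DN cells (-1.15).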
